A study of Mus musculus with 6 samples.

Results

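The carboxylesterases described here are 10 mouse genes, Ces1d, Ces1e, Ces1f and Ces1g of the Ces1 group and Ces2a, Ces2b, Ces2c, Ces2e, Ces2f and Ces2g of the Ces2 group. They were picked by gene name with their LOH and heterozygous values already known, so those values are a description and carry no test. All 10 were found among the 23525 genes of the deposited name table, and the count table of 53379 genes holds 20 genes of the family. RNA was sequenced from epithelial organoids, 3-dimensional cultures in a matrigel dome, that had been grown from KPC mouse pancreatic tumours of strain C57/Bl6. The 3 heterozygous libraries carry Trp53LSLR172H/+ and Pdx1-Cre, that is 1 mutant p53 allele switched on by a Cre recombinase driven from the pancreatic Pdx1 promoter. The 3 LOH (loss of heterozygosity) libraries carry Trp53LSLR172H/- and the same Cre, so that the wild-type Trp53 allele is lost, and the rest of the labelled genotype is the same in both groups. Each group holds organoid lines 6, 23 and 34, with 1 library per line and genotype. The descriptions of the LOH libraries end in an unexplained suffix, and whatever it stands for cannot be told apart from genotype. Separate cultures are not stated beyond the line number, so the p-values below measure only the spread between these libraries.

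Carboxylesterases are serine hydrolases held in the lumen of the endoplasmic reticulum. They cleave ester and amide bonds in drugs, prodrugs and environmental esters, and several also hydrolyse cellular triacylglycerols and cholesteryl esters. Liver and small intestine are their best known sites, with Ces1 enzymes foremost in liver and Ces2 enzymes prominent in the intestine.

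The 10 genes lie in tandem arrays on chromosome 8 (GRCm38, GENCODE mouse release 21). The 4 Ces1 members occupy chr8:93166068-93337308 on the minus strand, and the 6 Ces2 members occupy chr8:104734003-104969537 on the plus strand. Their coding sequences are alike, which bears on how reads can be assigned. Identity was 74.6% to 81.5% over the 6 Ces1 pairs, 79.7% to 92.1% over the 15 Ces2 pairs and 59.4% to 61.7% over the 24 pairs between the groups, and the closest pair was Ces2b and Ces2c. The stretch of 27 coding bases around the catalytic serine is printed for Ces1f and for 4 Ces2 members whose values are compared below, with the serine codon in capitals, from the GENCODE transcripts.
Ces2a: atatttggagtcTCAgcaggaggtaca
Ces2c: atttttggcgagTCTgcaggtggcaca
Ces2e: atttttggagagTCAgcaggtggcaca
Ces2g: atttttggcgagTCAgcaggaggcata
Ces1f: atctttggagagTCAgcaggaggttac
All 10 members hold such a serine codon. It is TCA in 8 members and TCT in 2, Ces2b and Ces2c, whose 27 bases are identical. The codon before it is gag in 8 members, gtc in Ces2a and cag in Ces2f.

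Promoters of 7 members were in the RefSeq table (GRCm38.p6, 250 bases before to 50 after the start). Those of Ces2a, Ces2c, Ces2e and Ces2g are shown because these genes moved in different ways between the libraries although they are neighbours. They lie at chr8:104733753-104734052, chr8:104846818-104847117, chr8:104926010-104926309 and chr8:104961468-104961767, all on the plus strand. Capitals mark every match to a searched motif on either strand.
Ces2a: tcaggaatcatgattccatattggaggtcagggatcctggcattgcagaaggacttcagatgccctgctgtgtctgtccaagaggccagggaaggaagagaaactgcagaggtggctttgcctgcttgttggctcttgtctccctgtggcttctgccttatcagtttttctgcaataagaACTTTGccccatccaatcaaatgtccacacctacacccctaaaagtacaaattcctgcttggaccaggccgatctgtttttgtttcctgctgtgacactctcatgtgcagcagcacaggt
Ces2c: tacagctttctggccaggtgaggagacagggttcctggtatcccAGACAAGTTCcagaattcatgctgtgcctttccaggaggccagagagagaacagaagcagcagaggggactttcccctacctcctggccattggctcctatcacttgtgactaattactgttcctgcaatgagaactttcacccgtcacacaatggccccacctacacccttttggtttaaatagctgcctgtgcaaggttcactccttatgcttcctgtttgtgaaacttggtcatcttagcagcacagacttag
Ces2e: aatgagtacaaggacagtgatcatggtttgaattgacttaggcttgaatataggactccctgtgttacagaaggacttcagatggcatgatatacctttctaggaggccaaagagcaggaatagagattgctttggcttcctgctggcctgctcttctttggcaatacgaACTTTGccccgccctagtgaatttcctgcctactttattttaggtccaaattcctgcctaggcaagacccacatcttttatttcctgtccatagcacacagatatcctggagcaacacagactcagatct
Ces2g: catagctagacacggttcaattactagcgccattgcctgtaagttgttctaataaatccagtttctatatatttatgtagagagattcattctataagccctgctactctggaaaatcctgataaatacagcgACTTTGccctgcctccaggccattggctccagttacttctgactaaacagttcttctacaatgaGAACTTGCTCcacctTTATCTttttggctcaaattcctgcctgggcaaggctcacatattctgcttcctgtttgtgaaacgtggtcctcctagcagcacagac
The letters ACTTTG in Ces2a, Ces2e and Ces2g are the reverse complement of CAAAGT, the core of the motif bound by HNF4 receptors. That core was chosen after the sequences were seen, and 14.4% of all 32851 promoters hold it. It begins 70 bases before the start in Ces2a, 80 in Ces2e, 92 in Ces2f and 117 in Ces2g, and these letters are not in the windows of Ces2c, Ces1e and Ces1g. The p53 decamer, the 10-base unit of a p53 binding site, matched in Ces2c and Ces2g, against 8.36% of all promoters. The motif AGATAA of the endodermal zinc finger factors (GATA family), held by 11.2% of all promoters, matched in Ces2g, Ces1e and Ces1g, and CDX (TTTATNG, 10.9%) matched in Ces1g, where 1 of its 2 matches overlaps the reverse complement of TATAAA (13.6%). None of the 7 windows held the longer HNF4 motif CAAAGTCCA, found in 0.475% of all promoters. The FOXA motif TGTTTAC, found in 3.65%, was in none of them. The core of the antioxidant response element, TGACNNNGC, was absent from these windows too and is found in 12.4%. Identity between these promoters ran from 57.3% to 70.7% over the Ces2 pairs. A match is a description of the letters and not a shown binding site.

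The make-up of the family differed between the genotypes in all 3 lines. Levels between genes are compared in TPM, the authors' transcript abundance scaled for gene length and depth. Ces2g supplied 78.4%, 75.6% and 74.3% of the members' summed TPM in the heterozygous libraries of lines 6, 23 and 34, and 14.7%, 15.0% and 12.9% in the LOH libraries of the same lines. Ces2a, a triacylglycerol and diacylglycerol hydrolase of liver, went the other way, from 8.28%, 5.0% and 7.27% to 22.7%, 63.0% and 71.9%. Ces2c, an intestinal triacylglycerol hydrolase, went from 2.59%, 4.58% and 1.04% to 45.2%, 10% and 11%. So Ces2g led in the 3 heterozygous libraries, Ces2c led in the LOH library of line 6, and Ces2a led in the LOH libraries of lines 23 and 34. The sum itself was 10, 12 and 7.7 TPM in the heterozygous libraries and 80.2, 18.6 and 9.76 TPM in the LOH libraries. The heterozygous and LOH sums lay far apart in line 6 only.

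**Figure D1:**
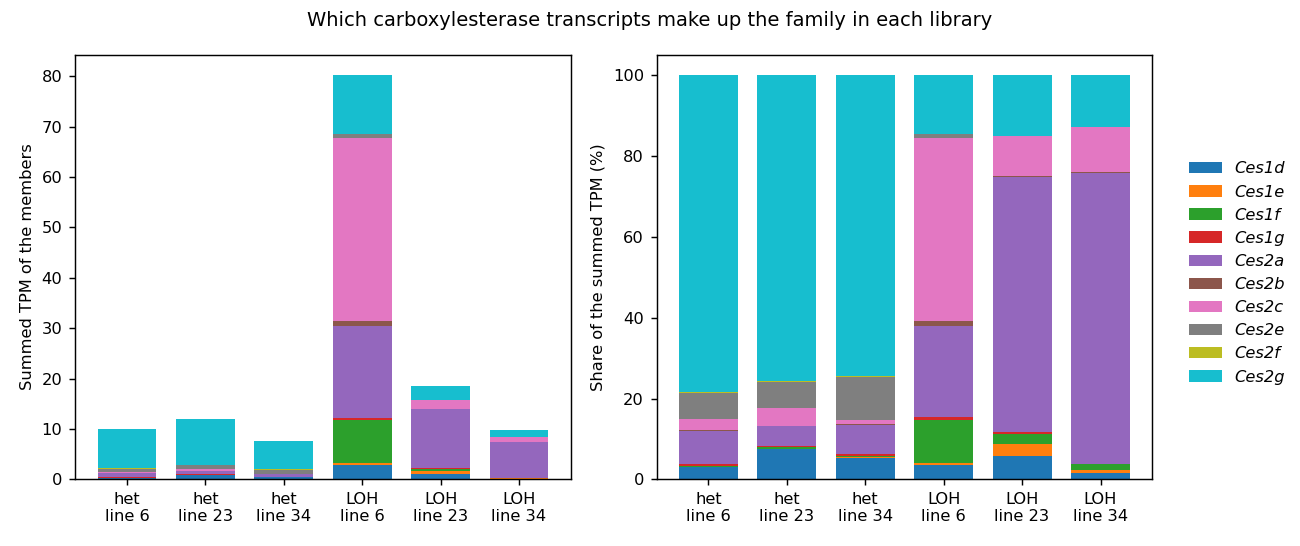
Summed TPM of the 10 members (left) and the share of each member in that sum in percent (right), with 1 stacked bar per library and colours for the members. Ces2g fills 74.3% to 78.4% of the heterozygous bars and 12.9% to 15.0% of the LOH bars, and the LOH library of line 6 has the tallest bar at 80.2 TPM.

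The first place was clear in the heterozygous libraries, while the order was looser below it and in the LOH libraries. In the heterozygous libraries Ces2g stood at 7.55 ± 1.7 TPM (SD, n = 3), above every other member in each library. Ces2e (0.743 TPM), Ces2a (0.663), Ces1d (0.547) and Ces2c (0.297) followed, each overlapping its neighbour in this order. The other 5 members had means of at most 0.0333 TPM. In the LOH libraries Ces2c averaged 13.1 ± 20.1 TPM, Ces2a 12.3 ± 5.62, Ces2g 5.29 ± 5.7, Ces1f 3.0 ± 4.67 and Ces1d 1.37 ± 1.39 (SD, n = 3), and the ranges of all neighbours in that order overlapped. Within each LOH library Ces2a was nevertheless above Ces2g. Ces2c ranked first only through line 6, at 36.26 TPM against 1.86 and 1.07 in lines 23 and 34.

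Within each gene, libraries are compared in CPM, the count scaled to the library total after TMM scaling. A floor of 3 counts corresponds to between 0.1 and 0.223 CPM in these libraries. Ces2a was the member whose lines moved together. It stood at 1.17, 1.04 and 0.935 CPM in heterozygous lines 6, 23 and 34 and at 32.7, 24.2 and 15.7 CPM in the LOH libraries. The groups did not overlap and each LOH library was far above its own line's heterozygous library. The ratio of LOH to heterozygous was 28.0 in line 6 (95% exact interval 19.9 to 40.6), 23.3 in line 23 (13.8 to 42.8) and 16.8 in line 34 (11.4 to 25.7). These intervals overlap one another, and like all intervals and floors here they cover counting error only, since PCR copies cannot be told from separate molecules. In the model over all genes the log2 fold change was 4.52 (SE 0.36).

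Among the 5 members tested in that model Ces2c had the largest fitted change, and its lines differed widely in size. It stood at 0.367, 0.964 and 0.134 CPM in the heterozygous libraries and at 69.2, 3.93 and 2.47 CPM in the LOH libraries. The groups did not overlap, but the LOH library of line 6 was far above the other 2. The ratio was 188 in line 6 (105 to 379), 4.07 in line 23 (2.28 to 7.9) and 18.5 in line 34 (6.81 to 70.3), and the interval of line 6 met neither of the others. The log2 fold change of 5.83 (SE 1.57) fell to 2.77 without the LOH library of line 6.

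Ces2g, the leading member of the heterozygous libraries, differed in direction between the lines. It had 16.4, 23.6 and 14.2 CPM in the heterozygous libraries and 33.7, 8.68 and 4.28 CPM in the LOH libraries. Line 6 was higher with LOH, at a ratio of 2.05 (1.82 to 2.32), and lines 23 and 34 were lower, at 0.368 (0.309 to 0.437) and 0.302 (0.238 to 0.379). The fitted log2 fold change of -0.22 (SE 0.70) averages over these opposite directions, and it was -1.51 without the LOH library of line 6. The drop of the Ces2g share in line 6 was therefore not a drop of its level, since Ces2g itself was higher there while Ces2a and Ces2c were higher still.

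Ces2e, found in liver and intestine, was counted in the heterozygous libraries at 1.0, 1.41 and 1.44 CPM and in the LOH libraries at 1.4, 0 and 0 CPM. Line 6 had a ratio of 1.4, with an interval of 0.781 to 2.47 that includes equality. Lines 23 and 34 had no count against 19 and 43, which against a floor of 3 counts in the LOH library is at least 12.4-fold lower and at least 10.3-fold lower. The exact intervals, which also count the error of the heterozygous library, reach up to ratios of 0.109 and 0.125. The fitted log2 fold change of -1.53 (SE 1.41) was -7.97 without the LOH library of line 6, a value that depends on the prior count. So Ces2e and Ces2a, which share some stretches of transcript, went opposite ways in lines 23 and 34.

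Ces2b and Ces2f were near the floor. Ces2b had 1, 0 and 1 counts in the heterozygous libraries and 50, 1 and 2 counts in the LOH libraries, so that it was clearly detected in the LOH library of line 6 only, at 2.91 CPM. Ces2f had 2 counts in each heterozygous library and 1, 1 and 0 counts in the LOH libraries. It was the 1 member under 10 counts in every library, and no difference was detectable at this depth.

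Among the Ces1 members, Ces1d, the triacylglycerol hydrolase that mobilises stored lipid in liver, was the best counted in the heterozygous libraries. It stood at 0.4, 1.26 and 0.634 CPM in the heterozygous libraries and at 2.97, 2.3 and 0.14 CPM in the LOH libraries. Lines 6 and 23 were higher with LOH, at ratios of 7.42 (3.9 to 15.3) and 1.83 (1.05 to 3.33), while line 34 was lower at 0.22 (0.0417 to 0.748), where the LOH library held 3 counts. The groups overlapped, and the fitted difference on the log2 scale was 1.27 (SE 0.96).

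Ces1f, a lipase related to Ces1d, had 1 count in each heterozygous library and 264, 25 and 7 counts in the LOH libraries of lines 6, 23 and 34. The LOH levels were 15.4, 0.944 and 0.326 CPM, all above the heterozygous range of 0.0334 to 0.0742 CPM. With 1 count in the denominator the ratios are loose, at 461 (82 to 18300), 12.7 (2.08 to 522) and 9.77 (1.25 to 440). Line 6 was again the highest.

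Ces1e, known as egasyn because it retains beta-glucuronidase in the endoplasmic reticulum, had 0, 0 and 1 counts in the heterozygous libraries and 14, 21 and 1 counts in the LOH libraries. Against a floor of 3 counts it was at least 8.14-fold higher in line 6 and at least 3.56-fold higher in line 23, and the exact intervals of the ratio begin at 5.79 and 2.65. In line 34 both libraries held 1 count. Ces1g had 2, 1 and 2 counts in the heterozygous libraries and 22, 6 and 0 counts in the LOH libraries, with a ratio of 19.2 in line 6 (4.72 to 168) and 3.05 in line 23 (0.37 to 140). The Ces1 members together made up 3.79%, 8.17% and 6.23% of the family's TPM in heterozygous lines 6, 23 and 34 and 15.3%, 11.8% and 3.79% with LOH, so their share was higher with LOH in lines 6 and 23 and lower in line 34.

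**Figure D2:**
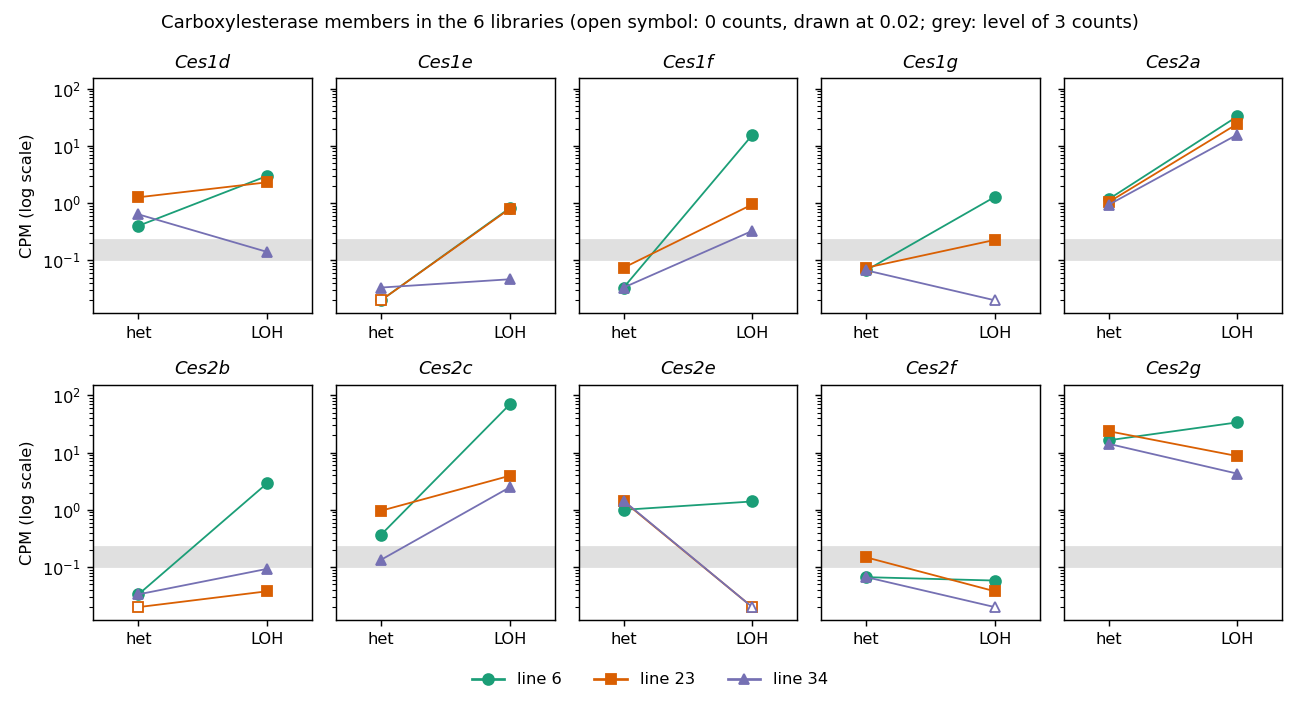
CPM of each member on a log scale in the heterozygous (het) and LOH libraries, with 1 line per organoid line, open symbols for libraries with 0 counts drawn at 0.02, and a grey band for the level of 3 counts (0.1 to 0.223 CPM). The 3 lines run close together for Ces2a, cross for Ces2g and Ces1d, and line 6 is far above the others for Ces2c, Ces1f and Ces2b.

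Counted over the family, 9 members were higher with LOH in line 6, 7 in line 23 and 5 in line 34. By CPM alone 5 were higher in all 3 lines, Ces1e, Ces1f, Ces2a, Ces2b and Ces2c. For Ces1e in line 34 and Ces2b in lines 23 and 34 the difference rests on 0 to 2 counts a library, and their intervals include equality. Of the 10 members, 8 had their highest CPM in the LOH library of line 6. The test over all genes (edgeR's quasi-likelihood test, Benjamini-Hochberg adjustment) kept 5 members after its filter on low counts, namely Ces1d, Ces2a, Ces2c, Ces2e and Ces2g, and those 5 are not the whole family. Of these 5 only Ces2a passed the adjusted threshold, while 5.21% of the 14537 tested genes passed (3.55% higher and 1.66% lower). Ces2a also passed once the line entered the model as a block, as did 1.47% of tested genes (1.22% higher and 0.248% lower). Of the 5 tested members, 2 had groups that did not overlap (32.8% of all tested genes, 16.4% with LOH higher), 3 had a log2 fold change above 0 (54.0%), 2 were higher in all 3 lines (22.9%) and 4 were highest in the LOH library of line 6 (18.9%). The members' median log2 fold change was 1.27 and that of all tested genes 0.06. Because the members were chosen from this contrast, nothing is read from these counts. The whole set of calls rests on all 3 heterozygous libraries, since no gene passed when any 1 of them was left out. The genes at an unadjusted p under 0.05 in edgeR's test were 3681 with all libraries. They were 2964, 2636 and 2269 without the heterozygous library of line 6, 23 or 34.

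Read assignment differs between the members. Of all 50-base windows of their transcripts, 98.9%, 97.0%, 99.1% and 98.3% were found in no other gene for Ces1d, Ces1e, Ces1f and Ces1g. Ces2e, Ces2f and Ces2g were nearly as unique, at 96.7%, 97.7% and 96.9%. Ces2b reached 90.6% and shares windows mainly with Ces2c, which held 1188 counts in the LOH library of line 6, where Ces2b held 50. Ces2a reached 82.7% and shares windows with Ces2e and the pseudogene Gm7208. Ces2c was lowest at 63.9%, sharing windows with Ces2d-ps and Gm8798, and reached 77.9% with 75-base windows. The pseudogene copies held almost no counts, with highest values of 1.04 for Ces2d-ps, 1.47 for Gm7208 and 2.01 for Gm8798, so few reads were assigned there. The read length is not given in the sources used here, and Ces2c, Ces2a and Ces2b remain uncertain to the extent that reads were split. Ces1d also overlaps Gm45909 on the same strand.

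The transcripts used by the leading members were those annotated as protein coding. Ces2a signal lay in the transcript of 1960 bases, at 100% of the gene's TPM in the heterozygous libraries and 90.98% to 96.72% in the LOH libraries. Ces2c used the transcript of 1970 bases for 98.91% to 100% of its TPM. Ces2g used the transcript of 2859 bases for 93.58% to 97.9%, and a form with a retained intron made up the other 2.1% to 6.42%. Ces1e used different annotated forms in the LOH libraries of lines 6 and 23. In line 6 the form of 1883 bases held all 14.0 counts. In line 23 that form held 0 counts. The form of 2073 bases held 15.67 counts there, but only 46.33% of the gene's TPM. The rest of the TPM in line 23 lay in another annotated form. The Ces2a shares did not overlap between the genotypes, but those of the heterozygous libraries rest on 14 to 35 counts.

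The remaining 10 carboxylesterase genes of the annotation, Ces1a, Ces1b, Ces1c, Ces1h, Ces2d-ps, Ces2h, Ces3a, Ces3b, Ces4a and Ces5a, were not detectable at this depth. The highest count of any of them in any library was 1, and 6 had none. The genes around the clusters were also described. Within 1000000 bases of the Ces2 cluster 47 other genes were tested and 0 passed, with a median log2 fold change of 0.28. Of the 793 tested genes of chromosome 8 outside the family 28 passed as higher and 6 as lower, with a median of 0.19. Around the Ces1 cluster 12 genes were tested and 0 passed, with a median of 0.07. Over all tested genes 3.55% passed as higher and 1.66% as lower, with a median of 0.06. With so few neighbours tested, 0 calls cannot be set apart from these shares. The nearest tested neighbour of the Ces2 cluster, Fam96b, lay 92038 bases away with a log2 fold change of 0.28.

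The libraries were checked against cell type markers, since carboxylesterases mark liver and intestine. All 7 epithelial markers (Epcam, Cdh1, keratins and claudins) were above 1 CPM in every library, with sums of 4610 to 5400 CPM in the heterozygous and 4780 to 9200 CPM in the LOH libraries. All 6 duct markers (Sox9, Krt7 and others) were too. Of 10 hepatocyte markers only Ttr reached 1 CPM, and the sum was lower with LOH (2.98 to 17.4 CPM) than in the heterozygous libraries (38.2 to 53.7 CPM). Serpina1a, Serpina1c, Cps1, Cyp3a11 and Cyp2e1 were at 0 in every library and Alb at no more than 0.801 CPM, so the defining hepatocyte transcripts were at or near 0.

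The summed enterocyte markers were higher with LOH in each line, as Ces2a and Ces2c were. The sum of 8 markers was 1.23, 1.04 and 1.54 CPM in heterozygous lines 6, 23 and 34 and 97.2, 7.85 and 9.5 CPM in the LOH libraries. Between 0 and 1 of the 8 markers reached 1 CPM in a heterozygous library, and between 2 and 4 in a LOH library. Alpi, the intestinal alkaline phosphatase of the brush border, stood at 0.3, 0 and 0 CPM and then at 64.5, 0.491 and 3.26 CPM. Apoa4, an apolipoprotein of intestinal lipid export, was at 0 in the heterozygous libraries and at 12.2, 0 and 0.0466 CPM in the LOH libraries. Single markers varied, since Sis had counts in the LOH library of line 6 only and Lct stood at 0.267, 0 and 0.334 CPM and then at 0.582, 0.189 and 0.14 CPM. Line 6 was the highest for Alpi and Apoa4, as it was for Ces2c, Ces1f and Ces2b. Whether more cells of an enterocyte type or more RNA per cell lies behind a higher level cannot be told apart in bulk RNA, and the part of these markers in the carboxylesterase values was not tested.

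**Figure D3:**
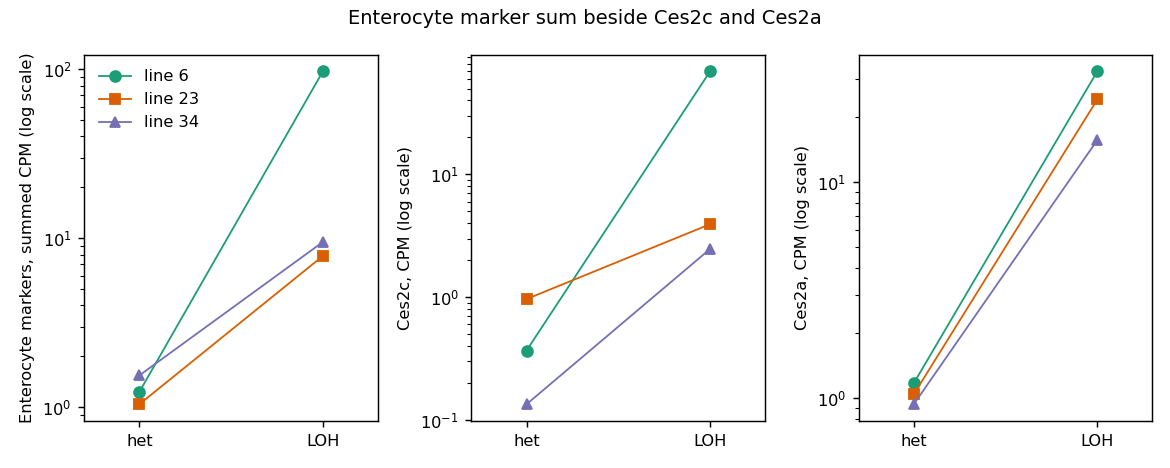
Summed CPM of the 8 enterocyte markers (left), CPM of Ces2c (middle) and CPM of Ces2a (right), each on its own log scale, in the heterozygous (het) and LOH libraries of the 3 lines. The marker sum and Ces2c are far higher in the LOH library of line 6 (97.2 and 69.2 CPM) than in the other LOH libraries, while Ces2a lies between 15.7 and 32.7 CPM in all 3.

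The wider set of enterocyte genes for lipid uptake and the brush border held 35 genes, of which 20 were tested. Of these, 4 rose and 0 fell, against 3.55% and 1.66% over all tested genes. The list's median log2 fold change was 1.45, against 0.06 over all tested genes. Its median in lines 6, 23 and 34 was 1.6, 1.07 and 0.17. Cdhr2, a protocadherin that links microvilli, went from 5.51, 5.19 and 4.21 CPM to 124, 40.1 and 30.6 CPM, which is 3.70 on the log2 scale with an SE of 0.57 (edgeR adjusted p 0.0229). Its partner Cdhr5 rose by 3.20 on the log2 scale (SE 0.63; edgeR adjusted p 0.0385, and 0.094 with the line as a block). Rbp2, the enterocyte retinol-binding protein, rose by 2.96 (SE 0.62; edgeR adjusted p 0.0445, blocked 0.124), and the microvillus protein villin, Vil1, by 0.92 (SE 0.20; edgeR adjusted p 0.0481, blocked 0.113). With the block 2 of the 20 passed, Cdhr2 and Alpi, against 1.47% over all tested genes. Without any 1 of the heterozygous libraries 0 passed. Of the 20 tested genes 16 were highest in the LOH library of line 6, against 18.9% over all tested genes.

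Transcription factors, nuclear receptors and cofactors listed as possible regulators of carboxylesterase genes moved in both directions. Of 33 listed genes 32 were tested, and 3 rose and 4 fell, against 3.55% and 1.66% over all tested genes. The list's median log2 fold change was 0.09, against 0.06 over all tested genes. With the block 3 of the 32 passed, against 1.47% over all tested genes. In this list 4 passed without the LOH library of line 23, and 0 passed without any 1 of the heterozygous libraries. Foxa1, a forkhead pioneer factor of endoderm, went from 1.5, 0.445 and 0.768 CPM to 25.7, 27.8 and 15.5 CPM, which is 4.61 on the log2 scale with an SE of 0.49 (edgeR adjusted p 0.0132). Hnf4g, an intestinal relative of the liver receptor Hnf4a, went from 0.767, 0.816 and 0.534 CPM to 9.95, 9.51 and 2.84 CPM, which is 3.40 on the log2 scale with an SE of 0.56 (edgeR adjusted p 0.0267). Both were higher in every LOH library than in any heterozygous library, as were 16.4% of all tested genes. A link of either to the carboxylesterase values was not tested. Cdx2, the intestinal homeobox factor, rose by 1.56 (SE 0.27; edgeR adjusted p 0.029), but not past the threshold with the block (0.0644). Hnf4a itself was abundant and did not pass, at 180, 181 and 176 CPM and then 255, 169 and 162 CPM (log2 fold change 0.13, SE 0.22; edgeR adjusted p 0.742). Its sign was reversed in limma on the TPM scale (-0.34 and -0.35), where the median of all genes was -0.35 and -0.42.

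The factors that fell included the antioxidant regulator Nfe2l2, also called Nrf2, which controls several drug-metabolising genes. It went from 345, 356 and 343 CPM to 106, 83.4 and 95.5 CPM, which is -1.87 on the log2 scale with an SE of 0.17 (edgeR adjusted p 0.00985). Cebpa, a liver and adipose factor, changed by -1.44 (SE 0.27; edgeR adjusted p 0.0333), Nr5a2, a receptor of exocrine pancreas and liver, by -3.0 (SE 0.65; 0.0474), and the bile acid corepressor Nr0b2 by -4.59 (SE 0.81; 0.0302). With the block these 3 had adjusted p-values of 0.0852, 0.0814 and 0.0949. The size of the Nr0b2 change is loose. Nr0b2 had 26, 6 and 37 counts in the heterozygous libraries and 1, 1 and 0 counts in the LOH libraries. The xenobiotic receptors did not pass. Nr1i2 (PXR) stood at 0.968, 0.816 and 0.334 CPM and then at 6.81, 1.06 and 0.233 CPM, so only line 6 was clearly higher (edgeR adjusted p 0.323). The adjusted p was 0.863 for Nr1i3 (CAR) and 0.789 for the bile acid receptor Nr1h4. Trp53 itself had 77.3, 76.3 and 86.5 CPM and then 73.5, 52.5 and 47.4 CPM (log2 fold change -0.47, SE 0.22; edgeR adjusted p 0.227), a level that counts mutant and wild-type transcripts alike.

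**Figure D4:**
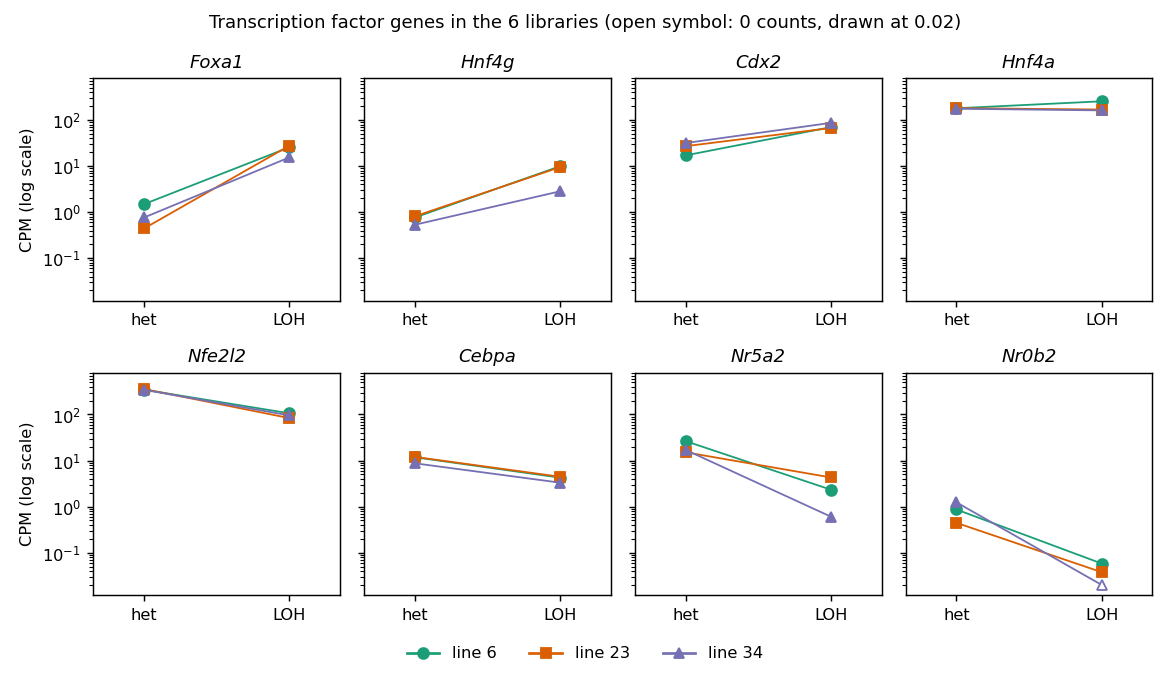
CPM on a log scale of 8 transcription factor genes in the heterozygous (het) and LOH libraries of the 3 lines, with libraries at 0 counts drawn as open symbols at 0.02. Foxa1, Hnf4g and Cdx2 rise and Nfe2l2, Cebpa, Nr5a2 and Nr0b2 fall in all 3 lines, while Hnf4a stays between 162 and 255 CPM.

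Other enzymes of drug and xenobiotic metabolism did not move one way. Of 67 listed genes 58 were tested, and 6 rose and 3 fell, against 3.55% and 1.66% over all tested genes. The list's median log2 fold change was 0.33, against 0.06 over all tested genes, with line medians of 0.76, -0.15 and -0.52. On the TPM scale the balance turned, with 3 higher and 7 lower in limma on log2(TPM + 1) and 2 higher and 4 lower on log2(TPM + 0.1). The calls over all genes turned as well, since 15.8% and 20.5% of them were higher in these fits, against 68.2% in edgeR's test. With the block 4 of the 58 passed, against 1.47% over all tested genes. Without the LOH library of line 6 the count was 15, without that of line 23 it was 5, and without any 1 of the heterozygous libraries it was 0. Aldh1a3, a retinaldehyde dehydrogenase, went from 3.14, 2.75 and 2.5 CPM to 22.2, 10.8 and 15.9 CPM (log2 fold change 2.54, SE 0.33; edgeR adjusted p 0.0164). Por, the electron donor of all microsomal cytochromes P450, rose by 1.13 (SE 0.21; edgeR adjusted p 0.0324, with the block 0.0925). The fatty acid hydroxylases Cyp4f13 and Cyp4f14 rose by 1.74 (SE 0.33; edgeR adjusted p 0.0355, blocked 0.0662) and 3.80 (SE 0.76; 0.039, blocked 0.0724), and as members of a multigene family they may share reads.

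The efflux transporter Abcg2 fell from 14.1, 13.8 and 12.4 CPM to 1.16, 0.68 and 0.419 CPM (log2 fold change -4.16, SE 0.41; edgeR adjusted p 0.0108). The phenol sulfotransferase Sult1a1 fell from 11.7, 33.5 and 14.1 CPM to 1.69, 2.49 and 1.82 CPM (log2 fold change -3.29, SE 0.48; edgeR adjusted p 0.0207). Abcb1b, a P-glycoprotein gene, changed by -1.80 (SE 0.33; edgeR adjusted p 0.0333, with the block 0.0674), while its near-copy Abcb1a was among the genes that rose, so their reads are uncertain. These are losses in all 3 LOH libraries beside the Ces2a gain.

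The other ester and lipid hydrolases, among them arylacetamide deacetylase, the patatin-like lipases, the cholinesterases and the paraoxonases, made up a list of 42 genes. Of the 32 tested 0 passed in edgeR's test, 13 had an unadjusted p under 0.05 and DESeq2 called 9. Of all 14537 tested genes 757 passed in edgeR's test, 3681 had an unadjusted p under 0.05 and DESeq2 called 2288. The list's median log2 fold change was 0.24, with line medians of 0.23, -0.06 and 0.29. With the block 1 gene passed, the pancreatic lipase relative Pnliprp2, whose edgeR adjusted p was 0.0855 without it. Leaving out the LOH library of line 6, 23 or 34 gave 7, 1 and 3 genes.

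The genes most like the leading members were found by Pearson's r of log2 CPM over the 6 libraries among 12674 genes, as a description with no p. For Ces2g they were Camk2g (0.9914), Aoc1 (0.9909), Klhl18 (0.9899), Zfp94 (0.9895) and Esrp1 (0.9883). Aoc1, a diamine oxidase, followed it most widely, with 0.767, 2.45 and 0.834 CPM and then 3.55, 0.34 and 0.0466 CPM. For Ces2c the most alike included Ovol1 (0.9912), Scamp5 (0.9912), BC030870 (0.9903) and Nlrp6 (0.9891). Nlrp6, a sensor of intestinal epithelium, went from 0.701, 1.11 and 0.434 CPM to 40.2, 3.93 and 4.7 CPM, with the same peak in line 6. For Ces2a, added after its values were seen, they were Efna4 (0.9978), Tmc6 (0.9974), Mgat3 (0.9966), Tubb4a (0.9964) and Grn (0.9953), and the 6 points fall into separate genotype groups. The points share libraries and scaling, and nothing about shared function follows from them.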

How the data were processed

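RNA of 6 organoid cultures was made into stranded total RNA libraries, per the labels' protocols. The submitters' processing notes name FastQC 0.11.5, STAR 2.5.2b, RSEM 1.3.0, DESeq2 1.44.0 and the build GRCm38.p5, and the table names give GENCODE mouse release 16. The strand setting is not given in the sources used here. The deposited expected counts are estimated counts per gene or transcript, per the file headers. The authors' TPM are scaled for length and depth. The percent of a gene's TPM per transcript was also deposited by the authors. The deposited normalized signal was the truncated count over 1 size factor per library in 100% of values, and it served only for gene names and the protein-coding set.

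Library totals ran from 13680454 to 27917307 counts. Counts were rounded, filtered by filterByExpr, scaled by TMM and tested with edgeR 4.0.16 (R 4.3.3; two-sided quasi-likelihood test, Benjamini-Hochberg over 14537 genes, threshold 0.05). SEs are the fold change over the square root of F. Log2 CPM used a prior count of 2. Line ratios have exact conditional (Clopper-Pearson) 95% intervals. The alternatives were other scalings and filters, the protein-coding set, the line as a block, DESeq2 1.42.0, limma 3.58.1 on log2(TPM + 1) and log2(TPM + 0.1), and each library or line left out. The tests were tried on simulated data. Python 3.11.15, pandas 2.3.3, Biopython 1.88 and matplotlib 3.10.9 made tables and figures.

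The titles give the same line number to 1 library of each genotype, which is the pairing. Deviations of same-line libraries from their group means correlated at -0.3, 0.01 and 0.29, within the range of -0.39 to 0.3 for different lines.

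The members and lists were chosen with earlier results of these data known. Named from each list were up to 4 higher and 4 lower genes of smallest p among those passing, plus Trp53, Hnf4a, Nr1h4, Nr1i2, Nr1i3 and Nfe2l2. Likeness was listed for the member with the highest mean CPM and the tested member with the largest fold change, and Ces2a was added later. The marker lists also held acinar, fibroblast, leukocyte and adipocyte genes, whose summed CPM stayed at or below 2.39, 0.582, 0.68 and 0.89 in every library. No protein sequences were used here. Some items are not reported here.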

Additional observations from a re-analysis of the deposited data

Results flagged for a closer look

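Some results had organoid lines that moved in opposite directions under the same contrast, in 10 of 36 results compared. With 1 library per line and genotype the difference between lines was not tested. Each value is the highest minus the lowest line's log2 ratio of LOH to heterozygous. Among the carboxylesterases it was 4.58 for Ces2e (0.45, -4.11 and -4.14 in lines 6, 23 and 34), 4.32 for Ces1d (2.65, 0.83 and -1.67), 3.98 for Ces1g (3.16, 0.96 and -0.82) and 2.74 for Ces2g (1.03, -1.43 and -1.71). In these 4 genes line 6 was the highest, and the Ces2e values of lines 23 and 34 and the Ces1g value of line 34 rest on 0 counts in the LOH library.

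Among the receptors and factors it was 3.11 for Nr1i2 (2.71, 0.34 and -0.40), 2.09 for Nr1i3, 2.02 for Nr1h4 and 0.62 for Hnf4a. The medians of the xenobiotic genes and of the other ester and lipid hydrolases differed by 1.28 and 0.35 between lines.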

How the results depend on the processing

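The Ces2a log2 fold change lay between 4.2 and 4.75 over the left-out libraries, and at 2.92 and 3.94 in limma with pseudocounts of 1 and 0.1. The other tested members ranged from 2.77 to 6.62 (Ces2c), 0.7 to 1.82 (Ces1d), -1.51 to 0.23 (Ces2g) and -7.97 to -0.9 (Ces2e) over the left-out libraries. With the organoid line as a replicate block they were 4.47 (Ces2a), 4.63 (Ces2c), 0.76 (Ces1d), -0.74 (Ces2g) and -3.15 (Ces2e). The number of members tested moved with the filter. Of 5 tested 1 passed, against 3 of 10 without the filter, 2 of 5 without line 6, 0 of 5 without line 23, 0 of 7 without line 34, and 0 to 3 of 5 or 7 with 1 library left out.

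Over all genes 757 passed, against 213 with the block, 2288 in DESeq2, 1790 and 1214 in limma on TPM, 1423 without line 6, 0 without line 23 and 0 without line 34, and 0 to 2448 with 1 library left out. Higher calls were 68.2% of them, but 83.1% with the block, 46.4% without the LOH library of line 6, and 15.8% and 20.5% in limma on TPM, where the median log2 fold change of all genes was -0.35 and -0.42. Of the 23 named genes, Trp53, Hnf4a, Nr1h4, Nr1i2 and Nr1i3 did not pass without the block. Of the others 11 no longer passed with the block, and none of the 23 reversed.

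The other ester and lipid hydrolases gave 0 genes, but 1 with RLE scaling, 1 with the block, 1 among protein-coding genes, 4 without the filter, 2 without line 6, 9 in DESeq2, 4 and 3 in limma, and 0 to 7 with 1 library left out. The xenobiotic list gave 9, but 4 with the block, 19 in DESeq2, 0 without line 23 or line 34, and 0 to 15 with 1 library left out. The factor list gave 7, but 3 with the block, 11 in DESeq2, 4 without line 6, 0 without line 23 or line 34, and 0 to 8. The enterocyte list gave 4, but 2 with the block, 7 in DESeq2, 1 in limma on log2(TPM + 0.1), 1 without line 6, 0 without line 23 or line 34, and 0 to 5.

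The Ces2g sign turned without the heterozygous library of line 23 (0.01), the LOH library of line 23 (0.07) or 34 (0.23), line 23 (0.31) or line 34 (0.08). Among the named genes of the lists, 4 that did not pass reversed: Hnf4a (-0.14 without line 6, -0.34 and -0.35 in limma, -0.15 to 0.24 with 1 library left out), Nr1h4 (0.24 without line 23, -0.79 to 0.06), Nr1i2 (-0.14 to 2.47) and Nr1i3 (0.47 without line 23, -0.5 to 0.16). The causes were not tested. Depth limits Ces1e, Ces1f, Ces1g, Ces2b and Ces2f, which the filter left out.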
